A study of Mus musculus with 42 samples.

Results

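Baseline gene expression was compared between the liver and the forestomach of the 4 vehicle mice, as the 8 arrays labelled with the D0 dose in these tissues out of 42 arrays in the series. All 4 were male Muta™Mouse, a transgenic strain that carries a bacterial lacZ reporter in every cell. They received olive oil alone by oral gavage for 28 days and were about 11 weeks old when tissues were taken 72 h after the last dose, so neither group had been given benzo(k)fluoranthene, the polycyclic aromatic hydrocarbon of the study. Each tissue of each mouse gave 1 array, and the same mice supplied both tissues. The RNA came from random sections of whole tissue, not from sorted cells, and each array set the tissue (Cy5, red) against a common mouse reference RNA made from 11 cell lines (Cy3, green). A value below is therefore a log2 ratio of tissue to reference, and a difference is the liver mean minus the forestomach mean of that ratio, positive where the liver was higher.

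The liver is built mainly of hepatocytes, which secrete most plasma proteins, store and release glucose, dispose of ammonia, make bile acids and oxidize or conjugate foreign compounds. The rodent forestomach has no glands. It is a holding pouch lined by a stratified squamous epithelium that keratinizes at its surface, laid on connective tissue and on layers of smooth muscle with their nerves. In the squamous lining, basal cells carry one set of keratins, cells above them switch to another, and the outermost cells cross-link precursor proteins such as loricrin and the small proline-rich proteins under their membrane into a cornified envelope. Both organs meet swallowed polycyclic aromatic hydrocarbons early, and the cytochrome P450 enzymes that convert such compounds are part of what was measured here.

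Of 22842 probes tested, 11402 (49.9%) passed an adjusted p of 0.05 and a 1.5-fold difference, 5516 of them (24.1%) higher in the liver and 5886 (25.8%) higher in the forestomach. On one main probe per named gene, 6827 of 12407 genes (55.0%) were called, with 3248 (26.2%) higher in the liver and 3579 (28.8%) higher in the forestomach, and these shares are the background for every gene list below. The 4 livers did not overlap the 4 forestomachs at 13364 probes (58.5%). The difference reached 32-fold at 332 called genes in the liver and at 147 in the forestomach. With each array centred on its median in place of the intensity-dependent (loess) normalization, the split was 12261 probes higher in the liver and 1564 higher in the forestomach and the median over all genes moved from -0.03 to 0.94, so the size of differences, and the direction of small ones, depended on the scaling.

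The labels of both tissues held by their own markers, but the forestomachs differed among themselves in markers of another tissue. Summed over 14 markers of the glandular stomach, the red level relative to the array's upper quartile was 12.4 in mouse 1, 4557 in mouse 2, 3527 in mouse 3 and 15.9 in mouse 4, against 5.82 to 7.15 in the livers. In mice 2 and 3, 13 of the 14 markers were well above background, including both subunits of the parietal-cell proton pump, Atp4a and Atp4b, which were not detected in mice 1 and 4 nor in any liver. Markers of pancreatic acinar cells went the same way, with summed levels of 1291 and 1011 and 11 of 16 markers well above background in mice 2 and 3, against 12.4 and 10.6 with 2 of 16 in mice 1 and 4. The forestomach arrays of mice 2 and 3 also shared a slide, and the forestomach arrays of mice 1 and 4 had fewer probes well above background in the red channel (28.1% and 32.2%, against 41.8% and 45.4%). Gkn2 (gastrokine) and Tff1 (a trefoil peptide of surface mucous cells) were well above background in all 4 forestomachs and in no liver, with Gkn2 at 0.94, 7.66, 7.70 and 2.30 and Tff1 at 2.86, 5.17, 5.69 and 4.08 in mice 1 to 4. Gkn2 was at least 9.25-fold higher in the forestomach, and at least 1.65-fold without mice 2 and 3, and Tff1 at least 4.87-fold and 2.13-fold, by the lower bound described below. Of the 6 glandular genes bright enough to test, 3 were called higher in the forestomach, and all 6 were without the forestomachs of mice 1 and 4. The stratified keratins, which mark the squamous lining, did not follow this split: the stratified keratins summed to between 802 and 1205 in the 4 forestomachs and to between 6.72 and 7.79 in the livers. The part of either difference between arrays in the results was not tested, and values without the forestomachs of mice 2 and 3 are given for several of the genes that moved with the glandular markers. Without those 2 arrays 11829 probes were called, and 11598 without the forestomach arrays of mice 1 and 4.

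**Figure D1:**
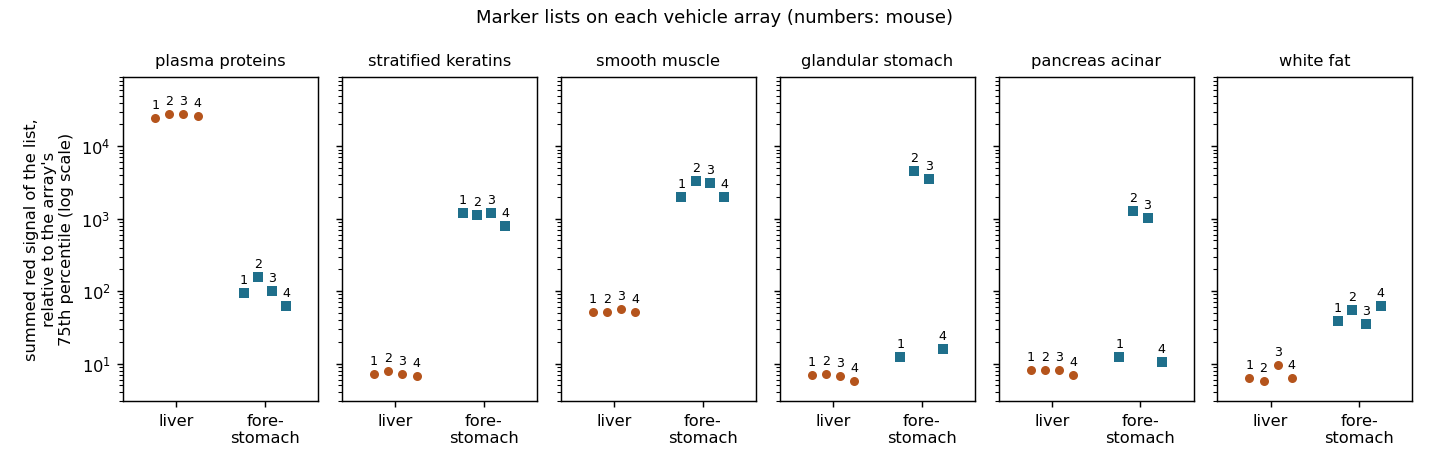
Summed red signal of 6 marker lists on each of the 8 arrays, relative to the array's upper quartile, on a log axis, with the mouse number at each point. Plasma proteins, stratified keratins, smooth muscle and white fat markers separate the tissues in all 4 mice, while glandular stomach and pancreas markers stand at 3527 to 4557 and 1011 to 1291 in the forestomachs of mice 2 and 3 and between 10.6 and 15.9 in those of mice 1 and 4.

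Liver secretory genes had the highest median of the 36 gene lists described. All 26 plasma protein genes tested were higher in the liver, by a median of 7.77 on the log2 scale against -0.03 over all genes tested. Ambp, which encodes the precursor of alpha-1-microglobulin and bikunin, measured 11.37, 11.75, 11.57 and 11.53 in the livers of mice 1 to 4 and 0.11, 2.23, 2.20 and 0.04 in their forestomachs. The groups were far apart, and the 2 forestomachs with the higher values were those of mice 2 and 3. The difference was 10.41 (SE 0.49, adjusted p = 2.5e-08 by limma, 4 mice). The forestomachs of mice 1 and 4 were not well above background, and against them alone the liver was at least 1202-fold higher. Serpina3k, a serine protease inhibitor of the plasma, differed by 10.33, Apoh (beta-2-glycoprotein I) by 10.11 and Fgg (the fibrinogen gamma chain) by 9.73. In bulk tissue, fewer cells of a type and less RNA per cell cannot be told apart.

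Hp, which encodes the hemoglobin-binding protein haptoglobin, led the liver genes picked for detection in every sample and for not overlapping between tissues. Detection and separation were thus conditions of the choice and not results. Hp measured 7.04, 7.23, 7.21 and 7.41 in the livers and -0.75, -0.48, -1.13 and 0.34 in the forestomachs. The difference of 7.73 (SE 0.27, adjusted p = 1.9e-09) is a 212-fold one (458-fold with median centring). Rbp4, the plasma carrier of retinol, measured 8.05, 8.31, 8.23 and 8.22 in the livers and 0.11, 1.35, 1.20 and 0.17 in the forestomachs. Igf1, the growth hormone-dependent growth factor, measured 6.12, 6.33, 6.36 and 6.30 in the livers and -0.71, -0.07, -0.67 and -0.38 in the forestomachs, a difference of 6.74 (SE 0.16, adjusted p = 1.1e-10), with 3.80, 4.91 and 6.34 on other probes. Rbp4, unlike Igf1, was higher in the forestomachs of mice 2 and 3 than in the other 2. Others picked in this way were Hsd11b1, which regenerates active glucocorticoid, Nat8f1, an acetyltransferase, Tfr2, the iron-sensing transferrin receptor, and Fmo5, a flavin monooxygenase. Their differences were 6.97, 6.96, 6.82 and 6.24.

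Some plasma protein genes followed the glandular markers in the forestomach. Ttr, the thyroid hormone carrier transthyretin, and Apoa1, the main protein of high-density lipoprotein, were chosen after their values were seen. Ttr was near 8 in every liver (7.81, 8.06, 7.87 and 7.99) but measured 0.03, 5.82, 4.85 and -0.06 in the forestomachs. Its difference of 5.27 (adjusted p = 0.0032) became 2.60 without the forestomachs of mice 1 and 4, which were not well above background and against which alone the liver was at least 57.2-fold higher. Apoa1 measured 0.12, 5.58, 4.85 and 0.05 in the forestomachs, and its difference of 5.71 became 3.15, with a liver at least 75.4-fold higher than mice 1 and 4 alone. Both stayed called without mice 1 and 4, and the forestomachs formed 2 separate levels at these genes.

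Genes of coagulation and complement were higher in the liver at 23 of the 24 tested, with a median of 6.82. Of the 24, 12 were well above background in no forestomach. Serpinc1, which encodes antithrombin, measured 10.27, 10.54, 10.18 and 10.47 in the livers and 0.17, 0.88, 0.75 and 0.18 in the forestomachs, a difference of 9.87 (SE 0.19, adjusted p = 2.8e-11). Mbl2, a mannose-binding lectin of the complement system, differed by 8.60. Plg, the precursor of plasmin, and Hc, complement component C5, were not well above background in any forestomach. For such genes a lower bound was set as the mean of the brighter tissue against the higher of the array's dimmest detected probe and the gene's own signal in the other. It was computed on 7 scales, and the lowest is printed, a choice made after the values were seen. They were the red channel as scanned, quantile normalized, or scaled by loess and the average intensity of both channels (Aquantile), and the ratio with loess, median centring, normexp background correction or as the scanner software gave it. These bounds are open to dye bias, because no array had its dyes swapped. Plg was at least 97.9-fold and Hc at least 95.7-fold higher in the liver. Other named genes were well above background on only some arrays of the dimmer tissue, so that their differences were measured partly against background. That was 1 of 4 forestomachs for Mbl2, Nr5a2, Slco1b2, Fbp1, Pck1, Mat1a and Stab2, and 2 of 4 for Ambp, Serpina3k, Apoh, Fgg, Fgb, Alb, Ttr, Apoa1, Serpinc1, Nr1h4, Hnf4a, Cyp2c70, Bhmt, Fabp1, Vsig4 and Dsg2, and 3 of 4 for Cyp7b1. It was 1 of 4 livers for Krt4, Krt5, Krt6b, Krt7, Crct1, Grhl1 and Fbln1, 2 of 4 for Cnn1 and Grhl3 and 3 of 4 for Gpx2 and Lyve1. In coagulation and complement, the gene that missed the threshold was F10 (coagulation factor X, named after its values were seen), at 0.35 with an adjusted p of 0.42 (2.09 and called with median centring), although on a second probe, above background in no forestomach, it was at least 65.8-fold higher in the liver (adjusted p = 1.7e-11).

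Transcription factors that define hepatocytes were higher in the liver at 15 of 16, with a median of 3.86 (4.26 without the forestomachs of mice 2 and 3, 2.86 without those of mice 1 and 4 and 2.92 in the red channel alone). The farnesoid X receptor gene Nr1h4, the bile acid sensor, measured 5.30, 4.93, 5.21 and 5.69 in the livers and -0.40, -0.34, -0.53 and -0.65 in the forestomachs, a difference of 5.76 (SE 0.17, adjusted p = 4.8e-10). The nuclear receptor Nr5a2 differed by 5.68 on its main probe, while another was above background in no forestomach and gave no bound, and Nr1i3, the constitutive androstane receptor that senses foreign compounds, was at least 7.68-fold higher. Neither tissue group overlapped the other at these genes. Hnf4a, which also acts in other organs of gut origin, again separated the forestomachs. This gene (named after its values were seen) measured 5.87, 6.10, 5.89 and 5.89 in the livers and 0.26, 3.88, 3.81 and 0.17 in the forestomachs, with a difference of 3.90. The forestomachs of mice 1 and 4 were not well above background, and the liver was at least 20.51-fold higher than these.

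**Figure D2:**
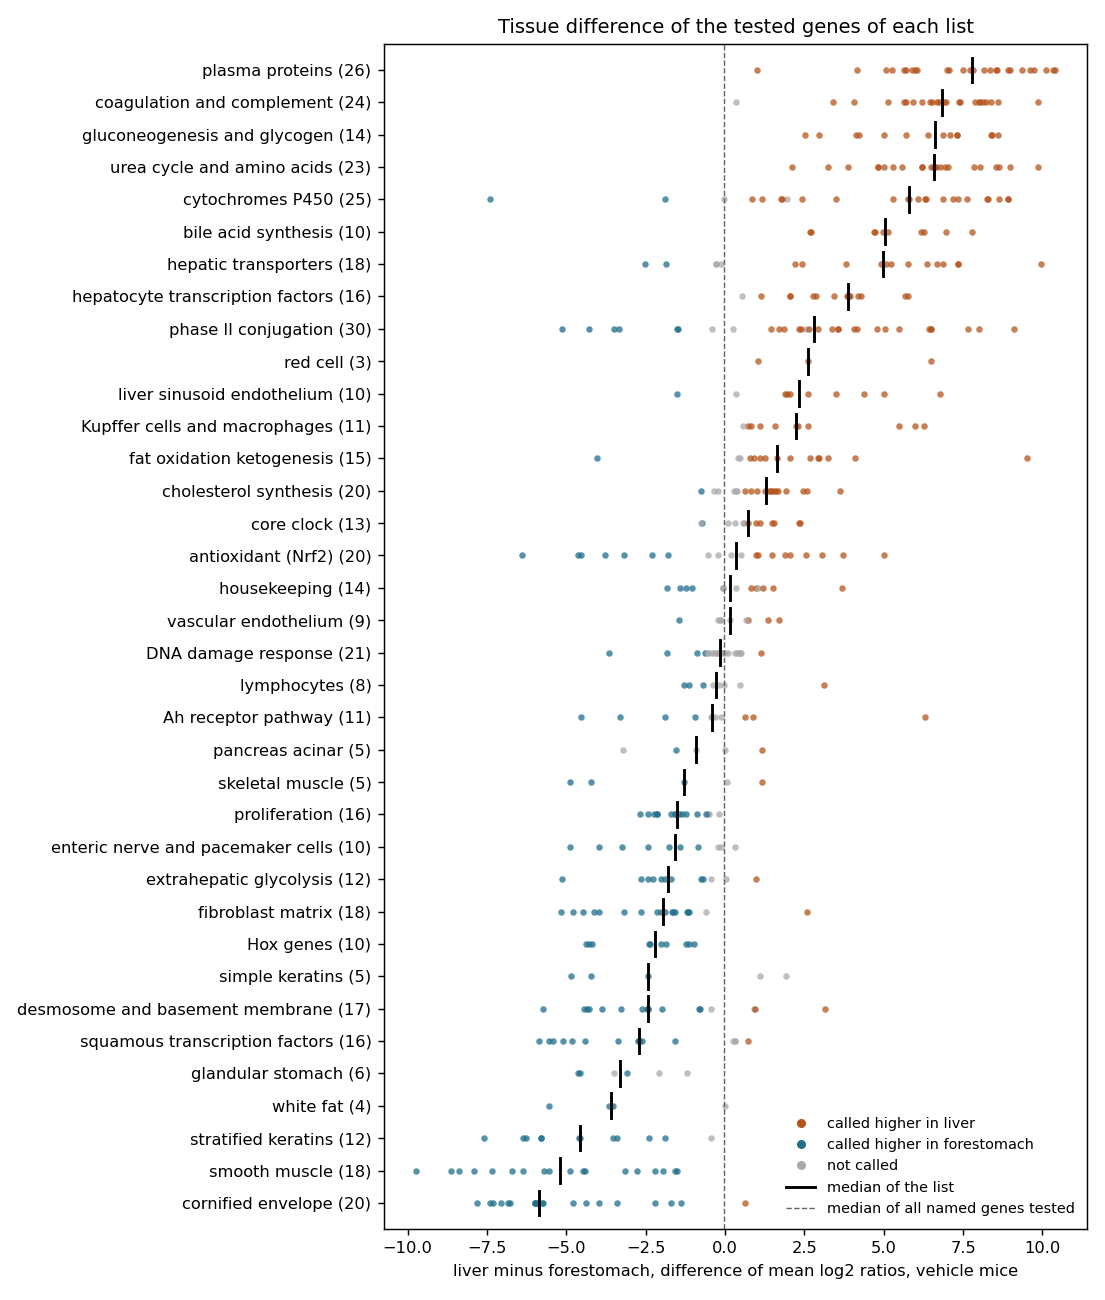
Liver minus forestomach differences (log2) for the genes of each list, one point per gene tested, with the list's median. Plasma proteins, amino acid and glucose genes lie to the liver side and smooth muscle, cornified envelope and keratin genes to the forestomach side, while the DNA damage and housekeeping lists lie around 0.

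Cytochrome P450 genes, whose products oxidize drugs, steroids and hydrocarbons, were higher in the liver at 21 of 25 tested and higher in the forestomach at 2, with a median of 5.80. Cyp2e1, which oxidizes ethanol and small solvents, measured 9.09, 9.29, 7.91 and 9.38 in the livers against 0.66, 1.44, 1.53 and 2.72 in the forestomachs. The difference was 7.33 (SE 0.43, adjusted p = 1.6e-07), and the liver of mouse 3 was the lowest of the 4. Cyp3a11 and Cyp3a25, of the family that handles many drugs, were not well above background in any forestomach and were at least 73.8-fold and at least 117-fold higher in the liver. Cyp4a12a, a fatty acid omega-hydroxylase of male mice, was at least 137-fold higher. Cyp2c70, which hydroxylates bile acids in mice, differed by 8.29.

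Enzymes that act on polycyclic aromatic hydrocarbons did not all lie on the liver side. Cyp1a2, a target of the aryl hydrocarbon receptor that activates aromatic amines, measured 6.11, 6.42, 6.26 and 6.34 in the livers and 0.01, -0.22, 0.19 and -0.05 in the forestomachs. No forestomach was well above background for it, and the liver was at least 15.7-fold higher (adjusted p = 4.8e-11). Cyp2s1, a P450 of epithelial surfaces, ran the other way. Its values were -2.75, -2.38, -2.80 and -2.37 in the livers and 4.79, 4.70, 4.82 and 4.94 in the forestomachs, which lay close together. The difference of -7.39 (SE 0.14, adjusted p = 2.8e-11) means a 167-fold higher ratio in the forestomach (59.1-fold with median centring). Cyp1b1, the extrahepatic member of the family, was well above background in all 4 forestomachs and in no liver and was at least 1.399-fold higher in the forestomach, a call that median centring ended (-0.62, adjusted p = 0.057).

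Among 15 genes of the aryl hydrocarbon receptor pathway, 11 could be tested, 3 were higher in the liver and 4 in the forestomach. The median was -0.41, and it became 1.06 with median centring (6 and 2 genes called), so the list as a whole had no settled direction. Nqo1, a quinone reductase, measured -1.33, -1.63, -1.30 and -1.85 in the livers and 2.91, 3.75, 3.26 and 2.09 in the forestomachs, a difference of -4.53 (SE 0.31, adjusted p = 4.5e-07). Aldh3a1, an aldehyde dehydrogenase of surface epithelia, differed by -3.32 (SE 0.13). For both, every forestomach was above every liver. The receptor gene Ahr itself was higher in the liver by 0.88 (SE 0.14, adjusted p = 0.00036) and its partner Arnt by 0.64 (adjusted p = 0.011), which was not called in red alone (0.31, adjusted p = 0.21) or on a second probe (0.05). Tiparp, a receptor target that feeds back on it, differed by -0.96, which changed to 0.33 and was not called with median centring. Cyp1a1 was well above background in no vehicle liver and in 1 vehicle forestomach and was not tested, and the receptor's repressor gene Ahrr was dim in the same way (0 livers and 2 forestomachs).

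Of 30 conjugating (phase II) enzyme genes tested, 21 were higher in the liver and 6 in the forestomach, with a median of 2.80 (22 and 2 with median centring, median 3.74). The UDP-glucuronosyltransferases Ugt2b5, Ugt2b1 and Ugt2b36 and the glycine conjugase Glyat were not well above background in any forestomach and were at least 122-fold, 53.1-fold, 42.35-fold and 23.2-fold higher in the liver. Glutathione transferase genes lay on both sides. Gsta3, of the alpha class, and the microsomal Mgst1 (named after its values were seen) were higher in the liver by 6.42 (SE 0.27) and 4.06 (SE 0.29). Mgst2, named after its values were seen, measured -3.24, -3.42, -3.44 and -3.62 in the livers and 0.75, 2.81, 2.02 and 1.18 in the forestomachs, a difference of -5.12 (SE 0.37, adjusted p = 8.1e-07) that became -4.39 without the forestomachs of mice 2 and 3. Gsta2, also named after its values were seen, measured 1.95, 1.75, 2.04 and 1.67 in the livers and 5.57, 7.64, 7.08 and 4.26 in the forestomachs. All 4 forestomachs were above the livers, and the difference of -4.28 became -3.06 without mice 2 and 3, whose forestomachs were the highest.

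Uptake and efflux transporters of the hepatocyte membrane were higher in the liver at 13 of 18 and lower at 2, with a median of 4.99. Slco1b2, which takes up bile acids and organic anions, measured 10, 10.27, 10.26 and 10.16 in the livers and -0.06, 0.45, 0.74 and -0.30 in the forestomachs, a difference of 9.96 (SE 0.21, adjusted p = 5.9e-11). The organic anion carriers Slc22a7 and Slco1a1 were at least 41.3-fold and at least 22.96-fold higher. The bile acid importer gene Slc10a1, named after its values were seen, was not called on its main probe (-0.13, adjusted p = 0.75) but was at least 19.35-fold higher in the liver on another that was above background in no forestomach (adjusted p = 7.2e-11).

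Antioxidant genes, many of them targets of the factor Nrf2, were divided: 9 of 20 were higher in the liver and 7 in the forestomach, with a median of 0.36 (12 and 5, median 1.65, with median centring). Gpx2, the gastrointestinal glutathione peroxidase, measured 0.43, 0.14, -0.20 and 0.22 in the livers and 6.15, 6.90, 6.55 and 6.50 in the forestomachs, a difference of -6.38 (SE 0.18, adjusted p = 4.9e-10). Catalase (Cat), a peroxisomal enzyme, measured 5.54, 5.46, 5.25 and 5.54 in the livers and 0.33, 0.19, 0.65 and 0.62 in the forestomachs, a difference of 5.00 (SE 0.14, adjusted p = 4.5e-10). Neither gene overlapped between tissues. The metallothionein gene Mt2, whose product binds zinc and copper, was higher in the forestomach by a difference of -4.62 (SE 0.19).

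Genes of intermediary metabolism lay on the liver side in 3 lists. All 14 genes of gluconeogenesis and glycogen handling were higher in the liver (median 6.62), as were all 23 genes of the urea cycle and amino acid breakdown (median 6.59) and all 10 of bile acid synthesis (median 5.05). Of these, 6, 10 and 5 were well above background in no forestomach. They passed the filter only through the livers, and their differences were measured against background. Hpd, of tyrosine breakdown, measured 8.69, 8.71, 8.73 and 8.83 in the livers and 0.30, 0.15, 0.12 and 0.17 in the forestomachs, none of which was well above background. It was at least 102-fold higher in the liver (adjusted p = 1.1e-11). The methyl-transfer enzymes Bhmt and Mat1a differed by 8.97 (10.07 and at least 8.61-fold on other probes) and 8.62. Cps1, the entry step of the urea cycle and named after its values were seen, was at least 64.3-fold higher.

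Fbp1, a control enzyme of gluconeogenesis, differed by 8.40. Pck1, which commits carbon to glucose, varied more between livers than most of its group, at 8.49, 9.29, 8.26 and 9.92, and the forestomach of mouse 4 (1.86) stood above the other 3 (0.36, 0.23 and 0.03). Its difference was 8.37 (SE 0.45, adjusted p = 7.2e-08), and the tissues did not overlap. Glycogen synthase of the liver type, Gys2, was at least 42.9-fold higher on its main probe and at least 3.52-fold on another. The counterparts used outside the liver lay mostly the other way, with 9 of 12 genes of extrahepatic glycolysis higher in the forestomach and 1 higher in the liver (median -1.79). With median centring this balance was lost, with 3 genes higher in each tissue and a median of -0.27. Hexokinase Hk1 measured -4.36, -4.28, -4.33 and -4.41 in the livers and 0.81, -0.02, 0.94 and 1.35 in the forestomachs, a difference of -5.12 (SE 0.24, adjusted p = 2.7e-08) that was -1.46 on a second probe detected in all 8 samples. The glucose carrier Slc2a1 differed by -2.65, brain-type glycogen phosphorylase Pygb by -2.43 and pyruvate kinase Pkm by -2.26, which was not called with median centring (-0.64, adjusted p = 0.31).

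In bile acid synthesis, Cyp7b1 of the alternative pathway differed by 7.78 and Slc27a5, which activates bile acids with coenzyme A, was at least 43.1-fold higher in the liver. Cyp8b1, which sets the share of cholic acid, was at least 17.5-fold higher, and Hsd3b7 differed by 6.18. Cyp7a1, the rate-limiting enzyme of the classic pathway and named after its values were seen, measured 5.32, 4.47, 5.12 and 3.85 in the livers, a wider spread than its neighbours, and was not well above background in any forestomach. It was at least 6.755-fold higher in the liver.

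Lipid genes showed smaller differences. In fat oxidation and ketogenesis 12 of 15 genes were higher in the liver and 1 in the forestomach (median 1.63, or 3.03 with 14 and 1 called under median centring). Fabp1, the liver fatty acid binding protein, measured 10.75, 11.12, 10.98 and 10.96 in the livers and 0.08, 3.00, 2.80 and -0.14 in the forestomachs, a difference of 9.52. Mice 2 and 3 were again the higher forestomachs, and the liver was at least 484-fold higher than the others, which were not well above background. Ehhadh, of peroxisomal oxidation, differed by 3.23. The thioesterase Acot1 was the gene higher in the forestomach, at 0.57, 0.06, -0.19 and 0.59 in the livers and 5.10, 3.67, 3.94 and 4.49 in the forestomachs (difference -4.04, SE 0.30, adjusted p = 1.1e-06). In cholesterol synthesis 14 of 20 genes were higher in the liver and 1 in the forestomach (median 1.30). Median centring gave 19 and 0 with a median of 2.58, and red alone 11 and 0. Sc5d, Dhcr7 and Nsdhl, late steps of the pathway, differed by 2.57, 2.46 and 1.92.

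The forestomach side was led by smooth muscle and by the keratinizing epithelium. All 18 smooth muscle genes were higher in the forestomach, with a median of -5.20. Actg2, the gamma actin of enteric smooth muscle, measured -3.69, -3.90, -3.54 and -4.07 in the livers and 6.13, 5.62, 6.32 and 5.64 in the forestomachs. The difference of -9.73 (SE 0.19, adjusted p = 3.5e-11) is 849-fold (299.7-fold with median centring). It was the farthest to the forestomach side of the 12407 genes tested on the ratio scale. The red signal of Actg2 was dim in the livers, at 6.55 to 6.91 (log2 intensity). The median red background of these arrays was 62 to 64 in scanned units, before taking logs. No background was subtracted, so the fold and the rank depend in part on that floor. In the red channel alone Actg2 differed by -9.10 and other genes stood farther out, among them Lor at -10.83. The regulatory light chain Myl9 differed by -8.62, the actin-binding proteins Tagln (transgelin) by -8.39 and Cnn1 (calponin) by -7.90, and tropomyosin Tpm2 by -7.34. Of the 18 list genes, 12 were well above background in all 4 livers and 4 in none. Actg2, Myl9, Tagln and Tpm2 are among the 12, but the rule that picked them required it.

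Stratified keratins were higher in the forestomach at 11 of 12 genes and in the liver at none, with a median of -4.58 (9 and -2.28 with median centring). Of the 12, 5 were well above background in no liver. Krt1, of differentiating suprabasal cells, measured -0.22, -0.20, -0.54 and -0.29 in the livers, none well above background, and 7.04, 7.50, 7.38 and 7.21 in the forestomachs. It was at least 25.3-fold higher in the forestomach (adjusted p = 2.4e-11). Its partner Krt10 differed by -6.35 and Krt4, of internal squamous linings, by -6.27. Krt14 and Krt5, the basal pair, were named after their values were seen. Krt14 was at least 6.64-fold higher in the forestomach, and Krt5 differed by -3.41 (SE 0.19, adjusted p = 9.1e-08, but -0.80 and not called with median centring), at 0.08, 0.73, -0.13 and 0.19 in the livers and 3.74, 3.38, 3.83 and 3.57 in the forestomachs. Krt6b, a keratin of activated epithelium, was uneven among forestomachs (5.44, 7.73, 7.60 and 3.98), highest in mice 2 and 3, and its difference of -5.81 became -4.33 without them.

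Keratins of simple epithelia behaved differently. Of 5 tested, 3 were higher in the forestomach and none in the liver. Krt18, the partner of Krt8 in hepatocytes and gland cells, measured 0.32, -0.06, 0.01 and 0.18 in the livers and -3.78, 0.36, 0.31 and -4.11 in the forestomachs. It was not called over all 4 mice (1.92, adjusted p = 0.11) but differed by 4.06 without the forestomachs of mice 2 and 3. Krt8, named after its values were seen, measured -2.60, 1.09, 0.68 and -2.95 in the forestomachs against 0.02 to 0.26 in the livers, and its difference turned from 2.93 without mice 2 and 3 to -0.73 without mice 1 and 4. Krt19, of ducts and glands, differed by -4.84 (-3.46 with median centring, adjusted p = 0.056), with forestomach values of -1.18, 3.27, 3.15 and -1.26, and by -2.63 without mice 2 and 3. At these genes the forestomachs of mice 1 and 4 and those of mice 2 and 3 formed separate levels. Krt23 and Krt7 differed by -4.21 and -2.43, and by -4.02 and -1.73 without mice 2 and 3.

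**Figure D3:**
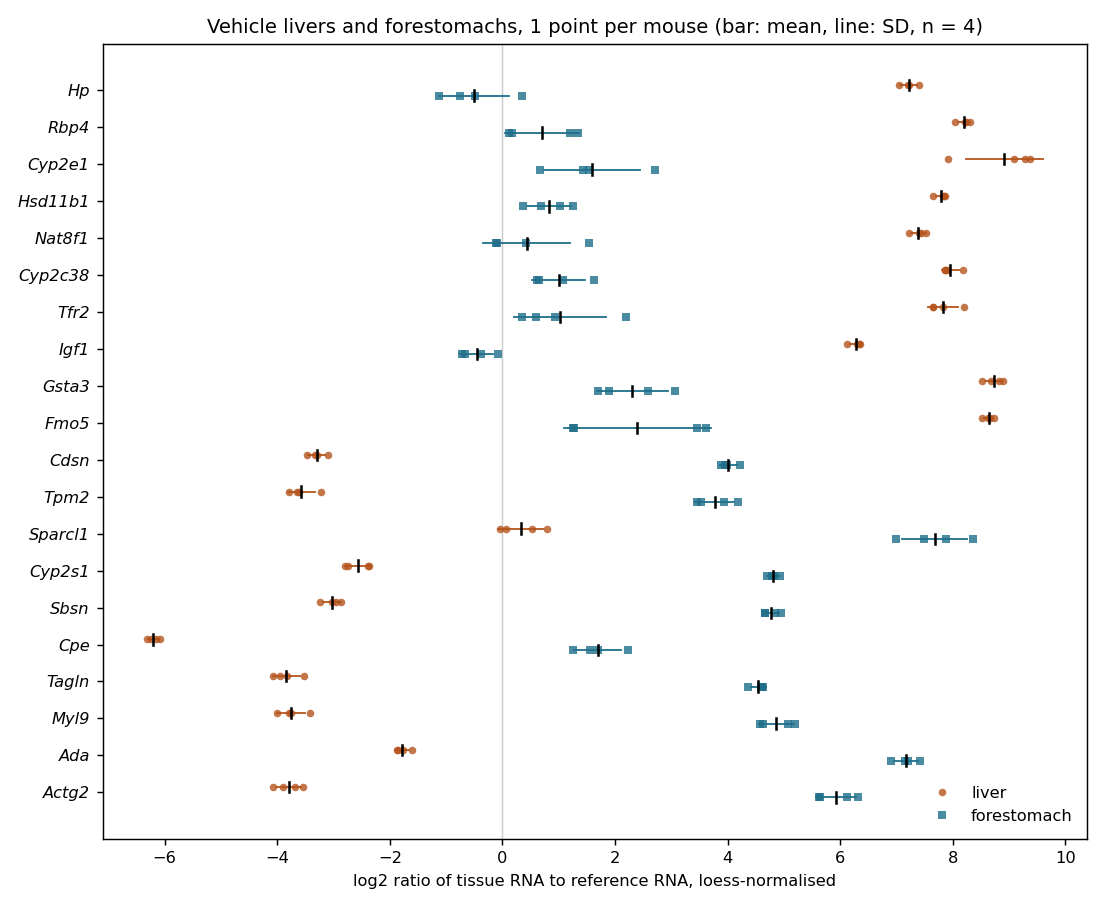
Log2 ratio to the reference RNA on each of the 8 arrays for the 10 genes farthest to either side among those well above background in all 8 samples and chosen for not overlapping between tissues, with the mean and SD of the 4 mice. They run from Hp at the top (livers above 7, forestomachs at most 0.34) to Actg2 at the bottom (livers below -3.5, forestomachs above 5.6).

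Genes of the cornified envelope and its surface were higher in the forestomach at 19 of 20 tested, with a median of -5.85 (18 and -3.13 with median centring). Of the 20, 10 were well above background in no liver. Sbsn (suprabasin), a secreted protein of upper epidermal layers, measured -2.86, -2.95, -3.03 and -3.24 in the livers and 4.67, 4.66, 4.84 and 4.95 in the forestomachs. The 4 forestomachs lay close together, and the difference of -7.80 (SE 0.13, adjusted p = 1.8e-11) is 223-fold (78.4-fold with median centring). Crct1, a cysteine-rich protein of the cornified layer, differed by -7.41 and Cdsn (corneodesmosin), which holds cornified cells together, by -7.32. Dmkn (dermokine) was at least 35.1-fold higher and was not well above background in any liver. Lor (loricrin), Krtdap and Sprr1a were named after their values were seen. Lor measured 0.73, 0.93, 0.72 and 1.61 in the livers and 6.83, 6.90, 7.18 and 7.04 in the forestomachs (-5.99, SE 0.20), Krtdap was at least 8.14-fold higher, and Sprr1a differed by -6.78. The gene higher in the liver was Tgm3, a transglutaminase named after its values were seen, at 0.63 on its main probe (0.23 and not called in red alone) and at least 2.30-fold higher in the forestomach on another, above background in no liver (adjusted p = 5e-08).

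Several of these genes lie together in the genome. Sbsn, Dmkn and Krtdap are neighbours on the plus strand of chromosome 7, and Lor and Sprr1a lie in a cluster of cornified-envelope genes on chromosome 3. The 250 bases before the start of each gene were taken from RefSeq (GRCm38.p6), and 18 of the list's 22 genes had such an entry. They are shown because these genes carried large forestomach differences and because each holds the motif TGANTCA, with N any base. AP-1 family factors bind the form with C or G at N, and the Sbsn copy has A there. The motif is in capitals, 5′ to 3′ on the gene's strand:

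Sbsn (chr7:30751221-30751470, + strand): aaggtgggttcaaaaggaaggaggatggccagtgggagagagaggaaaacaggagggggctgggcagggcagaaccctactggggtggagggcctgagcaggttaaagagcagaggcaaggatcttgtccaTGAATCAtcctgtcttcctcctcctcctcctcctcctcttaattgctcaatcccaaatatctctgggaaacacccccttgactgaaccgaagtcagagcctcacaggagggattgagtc
Dmkn (chr7:30763506-30763755, + strand): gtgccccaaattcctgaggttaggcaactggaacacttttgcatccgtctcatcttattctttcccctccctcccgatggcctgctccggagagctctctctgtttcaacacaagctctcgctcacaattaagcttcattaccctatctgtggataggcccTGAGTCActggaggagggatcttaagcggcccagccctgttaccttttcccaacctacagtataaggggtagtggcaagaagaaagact
Krtdap (chr7:30787655-30787904, + strand): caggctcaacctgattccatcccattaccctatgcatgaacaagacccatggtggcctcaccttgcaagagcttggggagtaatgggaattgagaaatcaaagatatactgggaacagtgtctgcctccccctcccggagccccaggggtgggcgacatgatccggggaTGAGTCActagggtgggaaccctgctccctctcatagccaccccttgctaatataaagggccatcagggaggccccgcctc
Lor (chr3:92083143-92083392, - strand): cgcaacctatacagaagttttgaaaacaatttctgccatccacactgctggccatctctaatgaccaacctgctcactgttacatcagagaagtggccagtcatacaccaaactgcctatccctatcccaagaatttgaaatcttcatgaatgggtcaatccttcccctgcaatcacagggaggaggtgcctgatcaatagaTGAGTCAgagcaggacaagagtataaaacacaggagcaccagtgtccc
Sprr1a (chr3:92485882-92486131, - strand): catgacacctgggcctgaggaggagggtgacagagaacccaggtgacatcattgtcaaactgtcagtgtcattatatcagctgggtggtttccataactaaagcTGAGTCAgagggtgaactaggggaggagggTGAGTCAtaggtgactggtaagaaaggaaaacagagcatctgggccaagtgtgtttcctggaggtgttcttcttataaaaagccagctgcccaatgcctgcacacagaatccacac

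The motif, which reads the same on both strands, was found in 11 of the 18 (61.1%) cornified-envelope promoters, against 7.82% of all genes with a promoter of the same length. The copies in Sbsn, Flg, Flg2, Rptn and Sprr1b had A or T at N, so these shares are not shares of the AP-1 letters. It begins 119 bases before the start of Sbsn, 89 before Dmkn, 81 before Krtdap, 48 before Lor and 146 and 116 before Sprr1a. TATAAA, searched on both strands and unable to overlap a copy of that motif, was present in 11 of the 18 (61.1%) against 14.3% of all genes. Other lists were searched in the same way. TGANTCA was in 1 of 5 promoters of stratified keratins, 1 of 14 of smooth muscle, 3 of 20 of plasma proteins and 1 of 17 of coagulation and complement genes. TATAAA was in 1, 2, 5 and 1 of these. The CArG box of muscle genes was in 1 of 14 smooth muscle promoters (1.62% of all genes). The hepatocyte motif GTTAAT, any base, then ATT was in 0 of 20 plasma protein and 2 of 17 coagulation and complement promoters (0.44% of all genes), and CAAAGTCCA was in none of either (0.451%). A match of letters is a description of the sequence and not a measured binding site.

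Cell adhesion and basement membrane genes were higher in the forestomach at 13 of 17 and in the liver at 2 (median -2.44), and with median centring at 9 and 2 (median -1.16). Pkp1, a desmosomal plakophilin, was at least 16.6-fold higher in the forestomach, where it measured 3.98, 4.24, 4.28 and 4.07. Col17a1 and the integrins Itgb4 and Itga6, which anchor basal cells to the basement membrane, were at least 6.10-fold and at least 7.88-fold higher and different by -4.35. Dsg2, a desmoglein of simple epithelia named after its values were seen, was on the liver side at 3.16 (adjusted p = 3.6e-05) and at 1.53 on another probe.

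Transcription factors of squamous epithelium were higher in the forestomach at 12 of 16 and in the liver at 1 (median -2.72), and with median centring at 12 and 3 (median -1.94). Grhl3 and Grhl1, grainyhead factors of the epidermal barrier, differed by -5.87 and -5.10. Klf4, needed for barrier formation, measured -2.80, -2.53, -2.63 and -2.80 in the livers and 2.88, 2.51, 2.96 and 2.62 in the forestomachs (difference -5.43, SE 0.14, adjusted p = 2e-10). Pitx1, a homeobox factor also active in hindlimb and oral epithelium, was at least 6.85-fold higher. Trp63, the master factor of stratified epithelia and named after its values were seen, was not called on its main probe (0.32, adjusted p = 0.11, but 1.72 and called higher in the liver with median centring), which gave -1.22 in the red channel alone, and was at least 19.1-fold higher in the forestomach on a second probe, above background in no liver (adjusted p = 5.2e-09).

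Hox genes, which encode position along the body axis, were higher in the forestomach at all 10 that could be tested of 18, with a median of -2.19 (6 and -1.09 with median centring). Of these 10, 4 were well above background in no liver and passed the filter only through the forestomachs. Hoxc4 measured -2.66, -2.64, -2.67 and -2.96 in the livers, none well above background, and 1.59, 1.13, 1.66 and 2.24 in the forestomachs. It was at least 7.08-fold higher in the forestomach (adjusted p = 2.8e-08), its neighbours Hoxc6 and Hoxc5 at least 7.15-fold and 5.025-fold, and Hoxb7 at least 2.28-fold.

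The wall of the organ also showed in connective tissue and nerve. Of 18 fibroblast and matrix genes, 16 were higher in the forestomach and 1 in the liver (median -1.95), and with median centring 8 and 1 (median -0.65). Fbln1 (fibulin) differed by -5.18 (at least 3.33-fold on another probe), the collagen genes Col3a1 and Col1a2 by -4.80 and -4.13, and Postn (periostin) was at least 4.16-fold higher. Fn1, which encodes fibronectin, a product of hepatocytes too, was the gene on the liver side at 2.58 (adjusted p = 0.00014) and was named after its values were seen. Genes of enteric nerve, glia and pacemaker cells were higher in the forestomach at 7 of 10 (median -1.59), and with median centring at 4, with 1 higher in the liver (median -0.49). Tac1, the substance P precursor, measured 3.97, 5.67, 5.24 and 4.42 in the forestomachs and was well above background in no liver (at least 7.63-fold). Ano1, the chloride channel of pacemaker cells, differed by -3.97 (SE 0.20).

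Of the 10 genes that the fixed rule named for the forestomach, the remaining ones belong to no list above. Ada, adenosine deaminase, measured -1.76, -1.86, -1.88 and -1.61 in the livers and 7.42, 7.15, 6.91 and 7.20 in the forestomachs. The difference of -8.95 (SE 0.14, adjusted p = 1.3e-11) is 493-fold (175-fold with median centring). Cpe, a carboxypeptidase of peptide-hormone processing, differed by -7.89 (-7.46 and at least 4.12-fold on other probes), and Sparcl1, a matrix glycoprotein of muscle and vessels, by -7.35.

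Resident cells of the liver sinusoid were measurable beside the hepatocytes. Kupffer cell and macrophage genes were higher in the liver at 10 of 11 (median 2.24). Cd5l, a secreted scavenger protein of tissue macrophages, measured 5.91, 6.27, 6.33 and 6.75 in the livers and was well above background in no forestomach, and it was at least 18.1-fold higher in the liver. Clec4f, a lectin of Kupffer cells, was at least 16.3-fold higher and the complement receptor gene Vsig4 differed by 5.49. Sinusoidal endothelial genes were higher in the liver at 8 of 10, led by Clec4g (at least 32.01-fold) and the scavenger receptor gene Stab2 (5.02, SE 0.12). Lyve1, shared with lymphatic vessels and named after its values were seen, was higher in the forestomach by a difference of -1.51, which was not called without the forestomachs of mice 2 and 3 (-0.83). General vascular endothelial genes were nearly balanced, with 3 of 9 higher in the liver, 1 in the forestomach and a median of 0.16. Lymphocyte genes had a median of -0.28 that became 0.78 with median centring, so no direction is given for them.

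Genes of the DNA damage response, of interest because the series tests a mutagenic hydrocarbon, had counts that turned on the scaling. Of 21 tested, 1 was higher in the liver and 4 in the forestomach with loess (median -0.15), 13 and 2 with median centring (median 0.82) and 3 and 4 in the red channel alone (median 0.04). Cdkn1a, the p53 target that arrests the cell cycle, had the largest difference of the list, at -3.15, -2.33, -3.07 and -3.58 in the livers and 1.06, 0.57, 0.62 and 0.27 in the forestomachs. No forestomach overlapped the livers, and the difference was -3.66 (SE 0.26, adjusted p = 6e-07, 12.7-fold, or 4.79-fold with median centring). The repair genes Ercc1 and Mgmt differed by -1.84 and 1.15, in opposite directions. Ccng1, another p53 target, differed by -0.87, a direction that turned with median centring. Proliferation genes were higher in the forestomach at 13 of 16 (median -1.51), led by Mki67 (-2.69, SE 0.17) and Mcm6 (-2.42), although with median centring 1 of the 16 was called, and Mcm6 was not (-0.87).

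Every array received the same reference RNA in green, yet the green signal differed between the liver and forestomach arrays at 5251 of 22842 probes (23.0%). The green signal of Alb (albumin, named after its values were seen) was 11.45 to 12.03 (log2 intensity) on the liver arrays and 5.36 to 5.91 on the forestomach arrays. For Krt5 the order was the opposite, 5.83 to 6.26 on liver and 12.87 to 13.54 on forestomach arrays, and for Lor it was 5.55 to 6.17 and 11.43 to 12.03. Gapdh, abundant in the reference itself and named after its values were seen, lay between 17.41 and 17.65 on both. For these tissue genes the reference was thus brighter on the arrays of the tissue that expresses them. On the 4 vehicle lung arrays, Alb and Krt5 were low in the reference (4.86 to 5.07 and 5.89 to 6.27), and between forestomach and lung arrays 3.08% of probes differed by 1.5-fold, against 24.1% between liver and forestomach. Liver arrays were also read with another version of the scanner software and on other slides than forestomach arrays, which cannot be told apart from the tissue, and the cause of the green difference was not tested.

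Some whole lists showed the same and others did not. Of 18 smooth muscle genes, 3 were higher in the reference of the liver arrays and 2 in that of the forestomach arrays (median 0.03). In bile acid synthesis 3 of 10 were higher on the liver arrays (median 0.26). For plasma proteins, 24 of the 26 genes were higher in the reference of the liver arrays (13.3% of all genes), and for the cornified envelope 15 of 20 and for the stratified keratins 10 of 12 were higher in the reference of the forestomach arrays (8.00% of all genes). With the red channel alone, quantile normalized, 28.4% of genes were higher in the liver and 25.2% in the forestomach. The medians on that scale were 8.98 for plasma proteins, -7.22 for the cornified envelope and -6.69 for stratified keratins, each farther from 0 than the ratio gave. Other lists moved the opposite way, from 6.82 to 5.66 for coagulation and complement, from 6.62 to 5.30 for gluconeogenesis and glycogen and from 5.05 to 4.18 for bile acid synthesis. Alb differed by 5.88 as a ratio (7.18, 7.33, 7.28 and 7.40 in the livers, 0.44, 2.58, 2.49 and 0.17 in the forestomachs) and by 10.10 in red alone. Krt5 moved from -3.41 to -8.90 and Lor from -5.99 to -10.83. Of the 11402 called probes, 9007 (79.0%) were called in the same direction in red alone and 66 in the opposite one.

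**Figure D4:**
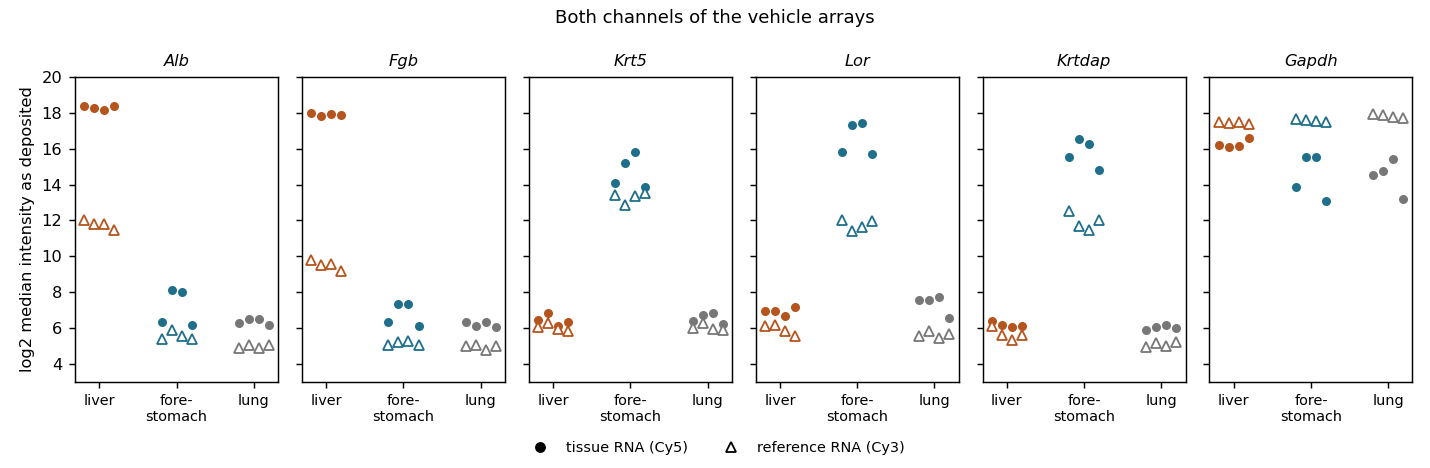
Log2 median intensity of 6 genes in the tissue channel (filled points) and the reference channel (open triangles) on the 4 vehicle arrays each of liver, forestomach and lung. The reference is brightest for Alb and Fgb (a fibrinogen chain gene, named after its values were seen) on liver arrays and for Krt5, Lor and Krtdap on forestomach arrays, while the reference signal of Gapdh is level.

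The same contrast was taken in mice that the vehicle comparison did not use, the 9 livers and 10 forestomachs of animals given benzo(k)fluoranthene, averaged over dose groups. There, 11136 of 22771 probes (48.9%) were called, with 25.2% of genes higher in the liver and 29.3% in the forestomach. Of the probes called in vehicle mice, 9907 (86.9%) were called the same way in dosed mice and 3 the opposite way. All 26 plasma protein genes were again higher in the liver. A test of the difference between the contrasts called 4 probes (0.0176%), with 1838 at an unadjusted p under 0.05. The fatty acid carrier gene Cd36 moved from -1.37 in vehicle mice to 1.31 in dosed mice, a change of 2.68 (SE 0.35, adjusted p = 0.0025).

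**Figure D5:**
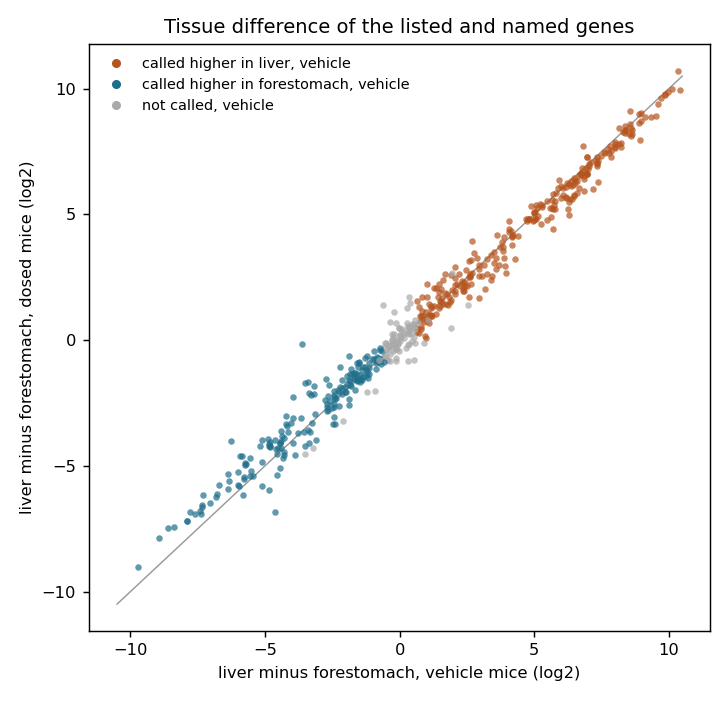
Liver minus forestomach difference (log2) of each listed gene in the vehicle mice and in the dosed mice, with the line of equal values. Most genes lie along the line, from smooth muscle genes at the lower left to plasma protein genes at the upper right.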

How the data were processed

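Liver and forestomach RNA of the 4 vehicle mice had been hybridized on 2-colour Agilent arrays. The deposited values are red and green median intensities read by Feature Extraction, version 11.0.1.1 for liver and 10.7.3.1 for forestomach, per the file headers, together with the software's own log10 ratios. The authors also deposited a normalized log2 table. Its liver columns correlated at -0.00301 to -0.00154 with the scanner ratios (forestomach 0.996 to 0.998), so it was not used. Here log2 red over green was loess-normalized within each array without background subtraction, as the study's methods state, in limma 3.58.1 (R 4.3.3). Of the spots on an array, 59305 spots were not controls and gave 55681 probes after averaging repeated spots. A probe was kept when red was well above background on at least 4 of 8 arrays. Symbols came from RefSeq accessions (GRCm38.p6) for 26413 probes (47.4%) and 20018 genes, with the brightest probe as main probe. limma's moderated test with Benjamini-Hochberg adjustment replaced the MAANOVA of the study's methods, with thresholds of 0.05 and 1.5-fold, and was tested on simulated data.

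Named genes were the 10 with the largest difference in either direction among called genes well above background on all 8 arrays and not overlapping, and up to 4 with the largest difference from each of 36 lists, beside 8 fixed pathway genes. The members and lists were chosen with earlier results of these data known. The same mice gave both tissues, so arrays are paired by animal. Deviations from the group means correlated at -0.0197 to 0.0393 within a mouse, and a fit with the mouse as replicate block called 11473 probes, against 11402. No spot that was not a control was saturated in either channel, and the number of arrays limits the precision. Alternatives covered background correction, scaling, filters, blocks, channels and left-out arrays. Livers and forestomachs were on different slides, 2 and 3 in number, so slide and tissue cannot be told apart. A few genes that the rule would name are not reported here. Cyp1a1 and other genes dim on most arrays were not tested.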

Additional observations from a re-analysis of the deposited data

Results flagged for a closer look

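By limma's test of the interaction over 22771 probes, the difference between liver and forestomach changed from vehicle to dosed mice at 4 probes. Their genes are given because this test called them. Cd36 changed by 2.68 (SE 0.35, adjusted p = 0.0025), from -1.37 to 1.31. Slc13a2, a citrate carrier, changed by -2.28 (SE 0.35, adjusted p = 0.015), from 4.02 to 1.74. Srgap3, a Rac-inhibiting protein, changed by -0.94 (SE 0.15, adjusted p = 0.02), from 0.03 to -0.91, and Pglyrp2, a liver amidase, by -0.94 (SE 0.15, adjusted p = 0.017), from 5.37 to 4.43.

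In 354 groups of 4 arrays looked at, 13 held a sample far from the other 3, at a limit that chance passes in about 1 in 20 groups. In the livers these were Cyp2c38 in mouse 1 at 8.18 (others 7.87 to 7.90), Nr1i3 in mouse 1 at 3.84 (4.15 to 4.19), Cyp8b1 in mouse 3 at 6.90 (6.09 to 6.17), Hoxc4 in mouse 4 at -2.96 (-2.67 to -2.64) and Tff1 in mouse 3 at -0.24 (-0.09 to -0.06). The remaining liver samples were Hnf4a in mouse 2 at 6.10 (5.87 to 5.89), Dsg2 in mouse 2 at 4.26 (4.46 to 4.50) and Gapdh in mouse 4 at -0.42 (-0.52 to -0.51). In the forestomachs they were Tagln in mouse 1 at 4.36 (4.60 to 4.63), Krt23 in mouse 1 at 5.08 (5.70 to 5.78), Col17a1 in mouse 1 at 2.81 (4.63 to 4.94), Sc5d in mouse 2 at 2.36 (2.01 to 2.03) and Acta1 in mouse 2 at 2.10 (2.56 to 2.65).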

How the results depend on the processing

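Of 11402 probes called, the count stayed within 1.5 times under every alternative run but the filter that kept probes well above background on all 8 arrays, which called 7085 of 13603 probes, 2883 of them higher in the liver. That filter leaves out genes present in a single tissue. Median centring in place of loess called 12261 probes higher in the liver and 1564 higher in the forestomach and moved the median of all probes from near 0 to 0.82. Leaving out each array in turn gave 11132 to 11546 calls, with 5396 to 5586 higher in the liver and 5724 to 5987 higher in the forestomach. The replicate block (mouse) gave 11473 calls and changed the call of 1 named gene. Of the named genes, median centring turned Ccng1 (0.42), Mzb1 (0.25), Cd3e (0.57), Actb (0.31), Tiparp (0.33) and Slc10a1 (1.62), the scanner software's ratios turned Slc10a1 (1.74), and the red channel alone turned Trp63 (-1.22). Without a change of direction, 11 named genes lost their call with median centring, 8 in the red channel alone and at most 5 under any other alternative, while at most 4 gained one under any alternative. Krt8 turned to -0.73 without the forestomach arrays of mice 1 and 4 and to -0.70 with mice 2 and 3 alone, alternatives chosen after seeing the data. The cause was not tested. Dim probes limit the rest: 518 genes were well above background in all 4 livers and no forestomach and 555 in the reverse, and for these only bounds hold.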

Other observations

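Markers of white fat and skeletal muscle were measured in the forestomach beside its lining and smooth muscle. White fat genes were higher there at 3 of 4 tested, and their summed red level was 35.0 to 62.2 in forestomachs and 5.78 to 9.50 in livers. Cidea, a lipid-droplet protein, measured 5.73, 6.47, 5.82 and 5.63 in the forestomachs and differed by -5.55 (SE 0.19, adjusted p = 1.8e-09 by limma), with 1 of 4 livers well above background. Cfd (adipsin) was uneven, at 4.82, 2.71, 0.76 and 6.36, while Fabp4 differed by -3.53. Of 5 skeletal muscle genes tested 3 were higher in the forestomach, with the troponin gene Tnni2 at -4.89 and Acta1, above background in no liver, at least 6.08-fold higher. The calcium-binding parvalbumin gene Pvalb was higher in the liver by 1.16 (SE 0.12).

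Red cell genes were higher in the liver at all 3 tested, with Alas2, of heme synthesis, at 6.48 (SE 0.18, 2 of 4 forestomachs well above background) and Hba-a1 at 2.61. Clock genes were higher in the liver at 7 of 13 and in the forestomach at 1, with a median of 0.71. With the mouse as replicate block 8 and 2 were called, and with median centring 10 and 0 (median 1.78). Nfil3, a repressor of clock outputs, differed by 2.35. Genes often used as references had calls in both directions, as genes in general did. Of 14, 5 were higher in the liver and 4 in the forestomach (10 and 1 with median centring). Over all genes tested the shares were 26.2% and 28.8%. B2m, the light chain of MHC class I, differed by 3.69 (SE 0.14, adjusted p = 5e-09), while Gapdh measured -0.51, -0.52, -0.51 and -0.42 in the livers and -0.70, -1.19, -0.54 and -0.98 in the forestomachs and was not called (0.36, adjusted p = 0.059). It was called higher in the liver with the scanner software's ratios (1.71), with median centring (2.07) and in red alone (0.62), and 3 of its 6 other probes were called (1.04 to 1.42) and 3 were not (0.02 to 0.56). Actb differed by -1.41, a direction that turned with median centring.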
